A study of Mus musculus with 6 samples.

Results

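The BGI_novel regions are transcribed regions of the mouse retina without a gene identifier in the deposited expression tables. The tables carry them under serial names (BGI_novel_G001694 and so on, shortened here to G001694). All 17705 genes listed with an Entrez identifier had a protein-coding (NM_) transcript, and none had a noncoding (NR_) one. Absence from that list therefore does not show that a region lacks an annotation elsewhere. Of the 1696 BGI_novel rows in the tables, 1160 had a rounded expected count of 10 or more in at least 3 of the 6 libraries. These are the regions described below. They were 1160 of the 15537 features that passed this limit, of 19401 features listed, and the other 14377 were genes with an Entrez identifier. The regions were chosen by these counts, so their abundance is given as a description and was not tested. G000103 (counts of 1, 12 and 9 in control and 1, 11 and 10 in EFV), G000422 and G000948 lay just inside the limit, and G000892 (5, 27 and 8 against 2, 9 and 13), G001138 and G001220 lay just outside it.

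The study asked whether low-dose efavirenz (EFV), an anti-HIV drug that activates the cholesterol-eliminating enzyme CYP46A1, alters the retina of 5XFAD mice, which are hemizygous for mutant human amyloid precursor protein and presenilin 1 on the B6SJL background. Both groups carried these transgenes, whose Thy1 promoter is active in neurons, and no group without them was sequenced here. EFV mice drank water with efavirenz from 3 to 9 months of age, at 0.08 mg/kg body weight by the labels and at a slightly higher daily dose by the methods, and control mice drank the vehicle. Each group had 3 libraries, and each library combined 1 retina with its RPE from 5 to 6 mice aged 9 months.

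When reads are assembled without an annotation, the new regions can be noncoding RNAs, extensions or isoforms of known genes, transcribed retroelements, transcripts of the mitochondrial genome, or processed pseudogenes, which are copies of spliced mRNAs put back into the genome. Abundant mRNAs of housekeeping genes have left many such copies, some nearly identical to the parent mRNA. A counting program of the expectation-maximization type divides a read that aligns to several copies among them by estimated shares, so the count of one copy can depend on the others. The tables name for each region the nearest protein in a database, here called its match, with no position or sequence of the region. A match is not evidence that the protein is made or that the RNA came from the organism named.

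The libraries held 23455167 to 24590278 counts. Markers of Müller cells, the main glia of the retina (3 of 3 found, such as Glul), summed to between 2741 and 2890 CPM (counts scaled to the library total with TMM factors) and RPE markers (7 of 7, such as Rpe65) to between 493 and 580 CPM in all libraries, so markers of the labelled tissue were present throughout. Rod markers (7 of 7) summed to between 60457 and 67769 CPM. Some other marker lists varied more between libraries. The 9 lens markers, none of them at 0 in all libraries, summed to 3018 CPM in control 3 and to between 26.5 and 143 CPM elsewhere. The mice of the pools were described as male. The Y-linked genes Ddx3y, Eif2s3y, Kdm5d and Uty, 4 in all, were summed. The sum was 213, 206 and 199 CPM in control and 266, 211 and 95.1 CPM in EFV. Each of the 4 was highest in EFV 1 and lowest in EFV 3. Whether the pools differed in sex make-up was not tested, which limits every comparison of the groups below. The 5 fibroblast markers, such as Col1a1 and Dcn, were low throughout but did not overlap between the groups, at 6.82, 6.41 and 8.21 CPM in control and 10.1, 8.43 and 8.50 CPM in EFV. Their part in the differences below was not tested. In pooled tissue, fewer cells of a type and less RNA per cell cannot be told apart.

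Together the regions held 7.90%, 8.06% and 7.51% of all counts in control and 7.39%, 7.60% and 7.85% in EFV. The means were 7.82% ± 0.280 (SD, n = 3) and 7.61% ± 0.232 (SD, n = 3), and the groups overlapped (exact permutation test, two-sided, p = 0.4, 0.6 after BH adjustment over the 3 single values tested). With 3 libraries against 3 this test cannot go below 0.10. On the FPKM scale, which divides by length, the regions held a mean of 4.82% of the summed FPKM.

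Most of this signal came from 2 regions that matched proteins of the mitochondrial genome. G001694, 6822 bases long with a match to cytochrome c oxidase subunit I, a core subunit of the last complex of the respiratory chain, had 710559, 691658 and 682156 counts in control and 653541, 672385 and 687355 in EFV. G001695, 8027 bases long with a match to an unnamed mitochondrial protein, had 700389, 682938 and 661811 counts in control and 641053, 676130 and 694807 in EFV. These were among the steadier regions, with a pooled within-group SD of log2 CPM of 0.046 and 0.064. By FPKM they ranked 3rd and 4th of all features, at a mean of 4160 and 3496 FPKM. The pair held a mean of 72.7% of the region counts and 5.61% of all counts, and the other 1158 regions 2.11% of all counts. In CPM, G001694 had 28827, 29977 and 28127 in control and 26466, 27789 and 28076 in EFV. These values did not overlap between the groups (background 4.18% lower), with a log2 fold change of -0.08 (SE 0.03) and an edgeR adjusted p of 0.999. Those of G001695 overlapped.

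The next region, G000916 (1266 bases), matched glyceraldehyde-3-phosphate dehydrogenase, an enzyme of glycolysis, and had 90626, 78278 and 65763 counts in control and 72357, 76619 and 56918 in EFV. It ranked 6th of all features by FPKM, at a mean of 2509. The 3 top regions held 76.6% of the region counts, the top 10 held 80.5%, the top 50 held 87.4% and the top 100 held 90.7%. For the top 10 the share was 80.9%, 80.6% and 80.9% in control and 79.3%, 80.6% and 80.6% in EFV, a difference within the spread between libraries (exact permutation p = 0.2, 0.6 after BH adjustment).

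**Figure D1:**
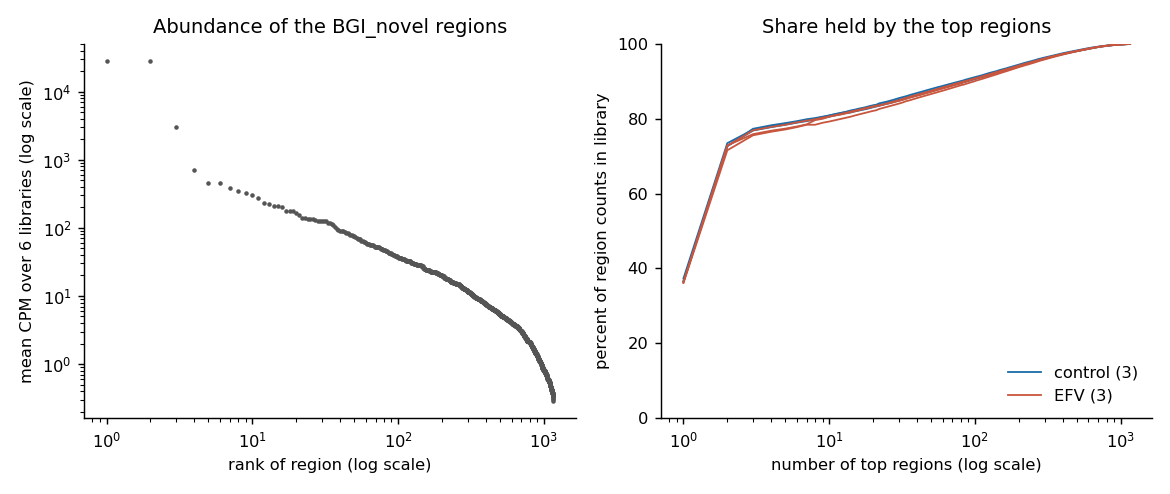
Left, mean CPM of each of the 1160 regions over the 6 libraries against its rank, both on log scales; right, percent of the region counts of a library held by its top regions against their number (log scale), one line per library. The 2 mitochondrial regions stand above all others, and the lines of both groups run together.

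The remaining regions of the top 10 were of several kinds. G001053 and G001051, 18638 and 19047 bases long, matched an endonuclease/reverse transcriptase of the kind encoded by retroelements, with a mean of 718 and 320 CPM. G000864 and G000865 matched 1 hypothetical protein listed under Plasmodium berghei, with 453 and 390 CPM, and G001358 an uncharacterized protein of a ground squirrel, with 448 CPM. G001361 (304 CPM) matched Atp6v0c, a subunit of the proton pump of lysosomes and synaptic vesicles. G001752 (342 CPM) is described below, because its libraries differed most. The log2 fold changes of the top 10, EFV over control, lay between -0.22 for G000916 and 0.39 for G001752, and none passed an adjusted p of 0.05 by edgeR.

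Most regions were weakly expressed. Over all 1160 regions, the top included, the median was 4.29 CPM (quartiles 1.49 and 12.4), beside 25.9 CPM for the Entrez features past the same limit. In FPKM it was 1.63 beside 8.55. Only 37 regions had a mean of 100 CPM or more, and 201 had less than 1 CPM. The median length was 2602 bases (quartiles 1169 and 4953), beside 3120 bases for the Entrez features and 456 bases for the 536 BGI_novel rows below the limit. The regions were more often at either end of the length scale than Entrez features. There were 90 of 1160 (7.76%) under 500 bases, against 0.494% of the Entrez features, and 84 (7.24%) of 10000 bases or more, against 2.15%. The shortest, G001554, had 202 bases and 8 to 18 counts per library, with a match to a cadherin-11-like protein. G000177 (221 bases) and G000723 (223 bases, with a match to elongation factor 1-alpha 1 of the translation machinery) were the next shortest. The longest, G001355, had 26720 bases and 1797 to 2297 counts, followed by G000976 (26293 bases) and G000110 (25495 bases).

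A protein match was listed for 1059 regions, to proteins of 142 organisms. For 468 it was a mouse protein and for 123 a protein listed under Plasmodium berghei ANKA, a parasite whose presence in the tissue these names do not show. Uncharacterized proteins made up 601 of the matches, other named proteins 366, ribosomal proteins 40, zinc finger proteins 33, retroelement proteins 17 and the mitochondrial genome 2, and 101 regions had none. The 40 regions with a ribosomal protein match were short, at a median of 945 bases, and the 17 with a retroelement match were long, at a median of 9356 bases.

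The 17 retroelement regions held 2.31%, 2.36% and 2.37% of the region counts in control and 2.75%, 2.40% and 2.38% in EFV. All EFV values lay above all control values, and the exact permutation p was 0.1, or 0.35 after BH adjustment over the 7 classes. By edgeR, 13 of the 17 had a higher and 4 a lower estimate, 3 and 1 of them at an unadjusted p of 0.05 or less (background 3.04% of all features tested in both directions together). The clearest, BGI_novel_G000869, had 3815, 4045 and 4073 counts in control and 4766, 4443 and 4612 in EFV, a log2 fold change of 0.18 (SE 0.05) with an edgeR adjusted p of 0.999. BGI_novel_G001636 and BGI_novel_G001637, both 9356 bases long and with 1 match, had the same count in every library: 371, 338 and 321 in control and 380, 381 and 396 in EFV. They were the only pair of regions with the same length and the same counts throughout. Among Entrez features with a mean of 100 counts or more there was no such pair, while 11 Entrez features of lower counts had an identical row. G001636 and G001637 both count among the 13 higher estimates, so that tally holds the same values more than once. The 33 zinc finger regions likewise reached an exact permutation p of 0.1 (0.35 adjusted), with 0.229% ± 0.00247 (SD, n = 3) of the region counts in control and 0.242% ± 0.0122 (SD, n = 3) in EFV. The other 5 classes gave an exact permutation p of 0.2 or more.

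The regions varied more between pools of one group than annotated genes of like abundance. The median within-group SD of log2 CPM was 0.303 over the regions and 0.0926 over the Entrez features. Among features of 10 to 50 CPM it was 0.190 for 257 regions and 0.0879 for 5642 Entrez features, and at 50 CPM and above 0.134 for 74 regions and 0.0613 for 4540 Entrez features. The medians of the regions were the higher ones in all 6 abundance classes. An SD above 1, which corresponds to a doubling, was found in 112 regions (9.66%) and in 0.591% of the Entrez features.

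**Figure D2:**
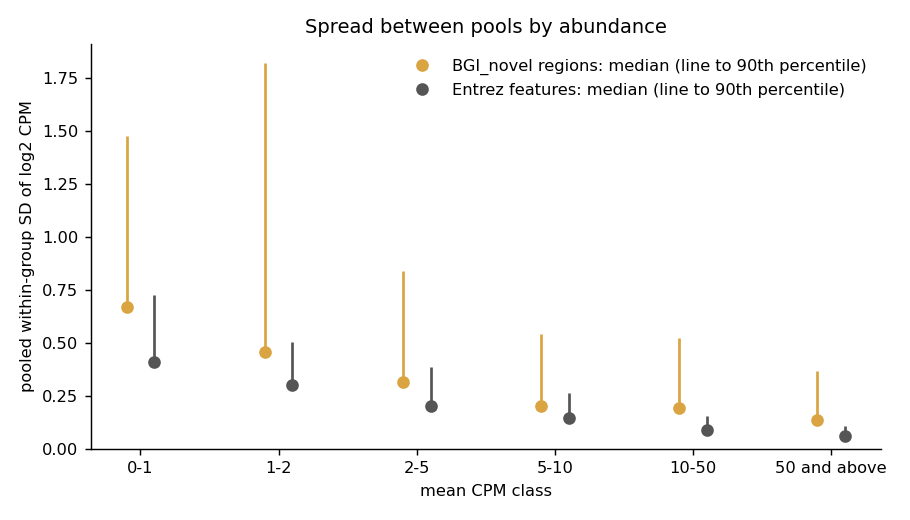
Pooled within-group SD of log2 CPM by class of mean CPM, for the BGI_novel regions and for features with an Entrez identifier; points are medians and lines reach up to the 90th percentile. In each of the 6 classes both the median and the 90th percentile of the regions lie above those of the Entrez features.

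Some regions were steady. Among regions with a mean of at least 100 counts the smallest SD was that of G000947, with a match to ribosomal protein S6 of the small ribosomal subunit, at 0.014. It had 6961, 6603 and 6776 counts in control and 6677, 6545 and 6555 in EFV. G000878, which matched somatic cytochrome c, the electron carrier of mitochondria, had 951, 900 and 944 counts in control and 1011, 928 and 961 in EFV. G001321, which matched the vesicle cargo receptor TMED2, and G000379 also had an SD under 0.04.

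At the other end, 56 regions (4.83%) had no count in at least 1 library, against 0.209% of the Entrez features past the limit. Of these 34 were at 0 in 1 library, 9 in 2 and 13 in 3, which is the most that the limit allows. In 44 of the 56 each library had either 0 or at least 10 counts. The zeros were spread over the libraries, at 15, 17 and 14 regions in control and 19, 14 and 12 in EFV (exact permutation p = 1, also after BH adjustment). In 20 regions at 0 somewhere, another library held 100 counts or more. G001269, with a match to an atherin-like protein, had 340, 0 and 0 counts in control and 121, 167 and 0 in EFV. Its control pools thus ranged from 0 to 340 counts. The 56 regions followed 23 patterns of zeros over the libraries, and a single region was on in all control and at 0 in all EFV libraries (G000486, below). None was on in all EFV and at 0 in all control libraries. The limit itself admitted 3 regions only through the control group and 2 only through the EFV group.

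Regions at 0 somewhere shared a match with another region about as often as all regions did, in 26 of 56 (46.4%) beside 567 of 1160 (48.9%). In some of these cases a region with the same match varied the other way. G000084 and G000085, 7188 and 7179 bases long, both matched FAM208B, a protein of the family of the HUSH silencing subunit TASOR. G000084 had 0, 781 and 785 counts in control and 0, 0 and 782 in EFV. G000085 had 1146, 331 and 331 counts in control and 1166, 1170 and 352 in EFV, so it was high where the first was at 0 and low where the first was on. Their sum stayed between 1112 and 1170 counts in all libraries.

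Regions with a match to PNMA-like protein 1, of a gene family derived from a retrotransposon, did the same. G001438 had 590, 607 and 0 counts in control and 609, 672 and 123 in EFV. G001437, a row outside the count limit, had 0, 0 and 530 counts in control and 0, 0 and 385 in EFV. With G001436 (154 to 337 counts) the 3 rows summed to between 761 and 850 counts. G001438 was at 0 or at its lowest in the libraries where G001437 was on.

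A group of 5 regions and 1 row below the limit matched RIKEN cDNA 2810426N06. G001465 had 38, 300 and 0 counts in control and 404, 512 and 402 in EFV. G001464 had 657, 662 and 637 counts in control and 503, 322 and 341 in EFV. G001466 had 140, 139 and 182 counts in control and 334, 281 and 400 in EFV. G001464 was lower and G001466 higher in every EFV library than in any control library. G001463 and G001467 ranged from 0 to 104 and from 0 to 119 counts. The 6 rows summed to 1307, 1221 and 1093 counts in control and 1289, 1215 and 1237 in EFV, with overlapping groups. The 5 regions alone summed to 929, 1220 and 923 counts in control and 1287, 1212 and 1231 in EFV. The row below the limit thus added counts mainly in control 1 and control 3, and the evenness of the 6-row sum depends on it.

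**Figure D3:**
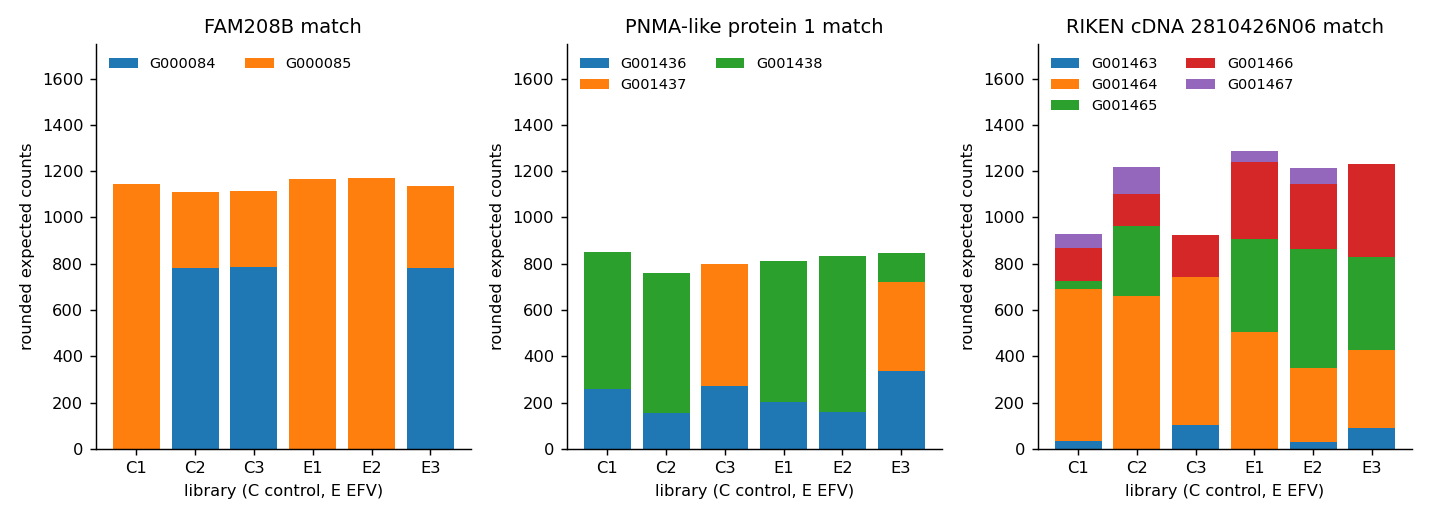
Rounded expected counts in each library (C, control; E, EFV), stacked by region, for rows that share a protein match; G001437 is outside the count limit, and the row of the RIKEN cDNA match outside the limit is not drawn. The colors change from library to library while the FAM208B columns stay between 1112 and 1170 counts and the PNMA-like columns between 761 and 850.

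These examples were chosen after their values were seen, and a sum has a smaller relative spread than its parts even when they vary independently. Over all regions, 567 of 1160 shared a match with another region, in 146 groups, of which 85 were pairs and the largest held 83 regions. The sum had a smaller SD of log2 CPM than the median member in 140 groups and than every member in 87. The variance of the summed CPM was smaller than the summed variances of the members, which independent members would equal on average, in 80 of the 146 groups and under 0.5 of them in 36, with a median ratio of 0.944. How often independent members would give ratios this low with 6 libraries was not tested, so these numbers do not show that members of a match varied against each other. G000571 and G000572, which both matched ectonucleoside triphosphate diphosphohydrolase 4, a Golgi nucleotidase, varied together. They had 0, 72 and 0 counts against 203, 0 and 209, and 0, 101 and 0 counts against 310, 0 and 215.

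Some regions could be set beside the annotated gene of their match. For 92 regions the matched protein was found by its accession in the RefSeq gene table, and for 73 of these the gene, 1 of 58, was in the files. The region had more counts than the gene in 9 of the 73 and a larger SD in 63. The median SD was 0.357 for the 73 regions and 0.113 for their genes. The 7 genes that follow were chosen after their values were seen.

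Gapdh itself had 39082, 45825 and 56149 counts in control and 42218, 45290 and 60343 in EFV. The 21 rows with its match, mostly G000916, had 91642, 80045 and 66857 counts in control and 73440, 77940 and 58077 in EFV. Gene and regions ranked the libraries in nearly opposite order. Their sum ranged from 115658 to 130724 counts. Scaled to the library total, as in all such percentages below, the highest library of the sum was 13.6% above the lowest. The gene alone gave 57.2%. The share of this sum in the regions was 70.1%, 63.6% and 54.4% in control and 63.5%, 63.2% and 49.0% in EFV. The log2 fold change of the sum was -0.12 (SE 0.04), with an edgeR adjusted p of 0.999.

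Hspa8, the constitutive heat shock cognate chaperone, had 25157 to 28999 counts. G001247, the main region of its match, had 7229, 4080 and 9 counts in control and 6227, 1346 and 1671 in EFV. In control 3 the 4 rows of the match held 0.0742% of the summed counts of gene and regions, and in control 1 21.8%. The highest library was 15.4% above the lowest for the Hspa8 gene and 15.9% for the sum, so the range of the sum was no smaller. For Rps2, a protein of the small ribosomal subunit, the gene had 3538, 2039 and 1632 counts in control and 3126, 2825 and 901 in EFV. The 6 rows of its match had 3183, 4050 and 5452 counts in control and 3271, 3531 and 6102 in EFV. The highest library was 286% above the lowest for the Rps2 gene and 12.1% for the sum of gene and regions.

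For Atp6v0c the gene had 8840, 5951 and 4704 counts in control and 7250, 6887 and 3671 in EFV, and G001361 had 5436, 7308 and 8697 in control and 5985, 6255 and 10504 in EFV. The region exceeded the gene in control 2, control 3 and EFV 3, where the gene was lowest among the libraries, and the sum varied by 8.75% from lowest to highest. For Rpl21, of the large ribosomal subunit, the log2 fold change of the gene was -0.28 (SE 0.10). That of the sum with its 3 regions was -0.10 (SE 0.04), with an edgeR adjusted p of 0.999 for both. The Rpl21 sum had 5672, 5464 and 5767 counts in control and 5370, 5369 and 5295 in EFV. Its groups did not overlap (background 4.18% lower). Kpna2, a nuclear import receptor, varied by 40.9% as a gene and by 14.7% with its region. Eno1 of glycolysis, with 11.6% for the gene and 10.4% for the sum, was steady either way. The reads that gene and region could share were not counted here, so the level of each alone is uncertain.

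**Figure D4:**
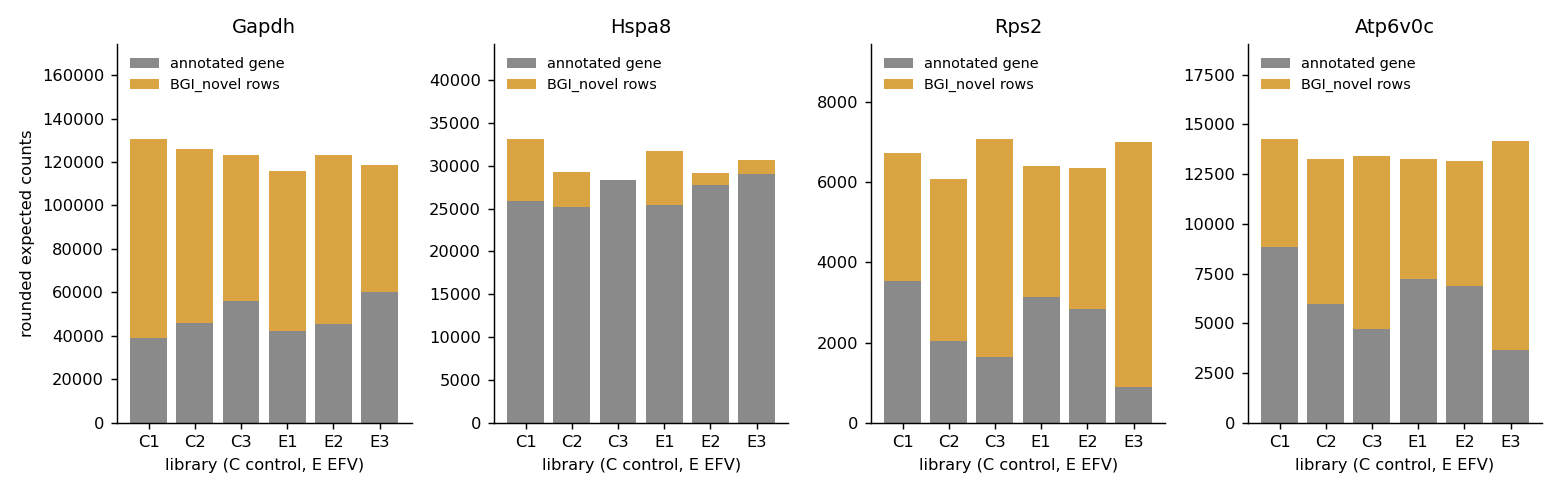
Rounded expected counts in each library (C, control; E, EFV) of 4 annotated genes (grey) and, on top, of all BGI_novel rows that matched their protein (yellow). The boundary moves between libraries of one group, most for Rps2 and Atp6v0c. Scaled to the library total, which the drawn counts are not, their sums vary by 12.1% and 8.75% from the lowest to the highest library.

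The fold changes of EFV over control were centred on 0, with a median log2 fold change of 0.0015 for the regions and 0.0012 for all features tested. They were wider for the regions. The 5th and 95th percentiles were -0.75 and 0.66 for the regions and -0.26 and 0.25 for all features. A log2 fold change of 1 or more in size was estimated for 45 regions (3.88%), beside a background of 0.605% of all features.

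No region passed an adjusted p of 0.05 by edgeR, and neither did any other feature (background 0%). The smallest adjusted p was 0.323 by edgeR. At an unadjusted p of 0.05 or less there were 104 regions (8.97%) beside a background of 3.04%. With the fold change limit of the study's methods as well, 103 regions remained (8.88%, background 3.01%). Of these 52 were higher in EFV (background 1.47%) and 51 were lower (background 1.54%). The groups did not overlap in 122 regions (10.5%, background 8.14%), 64 higher (background 3.95%) and 58 lower (background 4.18%). Leaving out 1 library at a time gave between 94 and 125 regions at the limits.

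DESeq2 called 10 regions at an adjusted p of 0.05 (0.862%) beside a background of 0.0708%, 5 higher and 5 lower in EFV. In all 10 the groups did not overlap, and 1 of the 10, G000486, had passed the count limit only through the control group. Of the 10, 6 shared a match with another region, as did 567 of all 1160 (48.9%). At an unadjusted DESeq2 p of 0.05 or less there were 84 regions (7.24%, background 1.74%). The calls depended on the tool, since edgeR gave none of the 10 an adjusted p below 0.323.

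**Figure D5:**
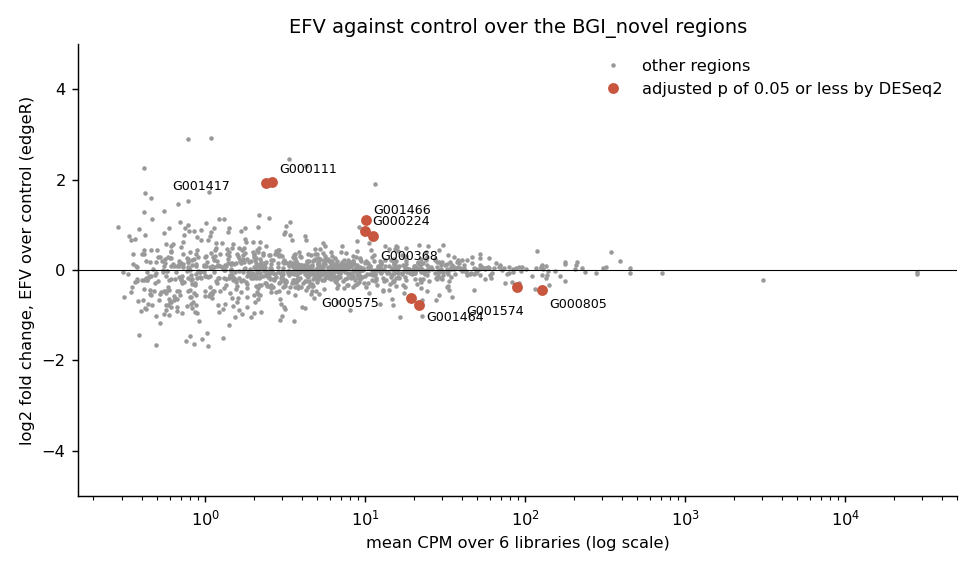
Log2 fold change, EFV over control, by edgeR against mean CPM over the 6 libraries (log scale) for the BGI_novel regions; the larger points are regions with an adjusted p of 0.05 or less by DESeq2. G000486, the 1 region outside the axis, had no counts in EFV and is not drawn.

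G001466 and G001464 of the RIKEN cDNA match had the lowest edgeR p in either direction among regions with non-overlapping groups, beside G000111 and G000486. For G001466 the mean was 6.40 ± 0.969 CPM in control and 13.8 ± 2.38 CPM in EFV (SD, n = 3), a log2 fold change of 1.11 (SE 0.15) with an adjusted p of 0.323 by edgeR and 7.82e-07 by DESeq2. For G001464 it was 27.2 ± 1.30 CPM in control and 15.9 ± 3.91 CPM in EFV (SD, n = 3), a log2 fold change of -0.78 (SE 0.14) with an adjusted p of 0.868 by edgeR and 5.18e-05 by DESeq2. The summed counts of the 6 rows of this match had a log2 fold change of 0.02 (SE 0.07) by edgeR, with an adjusted p of 1.00 by either tool. That sum includes the row below the limit, which added counts mainly in control 1 and control 3.

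G000486 had 21, 37 and 53 counts in control and 0, 0 and 0 in EFV. It passed the count limit through the control group alone, so it had to differ and its call by DESeq2 is no support for a change. It shared its match, a hypothetical protein listed under a cormorant, with 4 other regions. The most abundant, BGI_novel_G000487, had 1111, 1355 and 1251 counts in control and 1338, 1242 and 1357 in EFV. The group summed to 1230, 1524 and 1389 counts in control and 1404, 1347 and 1410 in EFV, a log2 fold change of -0.03 (SE 0.09). G000486 held a small part of the counts of its match in every control library.

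G000111, 1 of 6 regions with a match to a hypothetical octopus protein, had 34, 25 and 19 counts in control and 75, 134 and 96 in EFV, a log2 fold change of 1.94 (SE 0.29). The group summed to 3513, 3376 and 3157 counts in control and 4343, 3567 and 3641 in EFV, so its groups did not overlap either, and its log2 fold change was 0.17 (SE 0.07), with adjusted p of 1.00 by both edgeR and DESeq2.

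The next 4 regions called by DESeq2 shared their match with no other region. G000224 (427 bases) had 174, 179 and 154 counts in control and 264, 349 and 334 in EFV, a log2 fold change of 0.87 (SE 0.13) with a DESeq2 adjusted p of 0.000163. G000368, with a match to a regulatory subunit of protein phosphatase 2A, had 212, 162 and 229 counts in control and 360, 326 and 342 in EFV, a log2 fold change of 0.74 (SE 0.11) with a DESeq2 adjusted p of 0.000696. G001417 matched target of Myb protein 1, an adaptor of endosomal sorting, and had 18, 35 and 18 counts in control and 41, 99 and 139 in EFV (log2 fold change 1.94, SE 0.46, DESeq2 adjusted p of 0.00467). The annotated Tom1 gene had 1099, 976 and 1081 counts in control and 997, 908 and 913 in EFV. G000575 (11893 bases, uncharacterized protein) had 484, 597 and 599 counts in control and 445, 285 and 392 in EFV (log2 fold change -0.61, SE 0.15, DESeq2 adjusted p of 0.0330). After the counts of each match had been summed, an alternative chosen after the data were seen, DESeq2 called 5 of the 746 resulting BGI_novel features, these 4 and a sum of 6 regions named below (background 0.0397% of all features in that fit), and edgeR called none.

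The last 2 regions called by DESeq2 belonged to a group with matches to cadherin-11-like proteins, relatives of an adhesion molecule of mesenchymal cells. G000805 had 3775, 3604 and 3055 counts in control and 2867, 2537 and 2476 in EFV, a log2 fold change of -0.43 (SE 0.09) with a DESeq2 adjusted p of 7.95e-05. G001574 had 2678, 2354 and 2181 counts in control and 2078, 1665 and 1969 in EFV, a log2 fold change of -0.36 (SE 0.09) with a DESeq2 adjusted p of 0.0148. Of the 14 regions whose match names cadherin-11, grouped after their values were seen, 13 had a lower estimate in EFV, with a median of -0.30, 5 at an unadjusted edgeR p of 0.05 or less (background 3.04%) and 4 with groups that did not overlap (background 4.18% lower). The remaining estimate was 0.09. Having been grouped by values already seen, they are no independent evidence of a direction. For the 6 of them that matched 1 entry named cadherin 11, the summed counts were 4572, 4063 and 4084 in control and 3553, 3746 and 3522 in EFV, with a log2 fold change of -0.26 (SE 0.06) and an adjusted p of 0.0125 by DESeq2. The sum of all 14 was 18513, 16361 and 14714 counts in control and 15091, 13789 and 13583 in EFV, so control 3 lay below EFV 1. The annotated Cdh11 gene had 1256, 1051 and 1080 counts in control and 1161, 1136 and 1109 in EFV, with a log2 fold change of -0.02 (SE 0.06). The fibroblast markers given above were higher in each EFV library than in any control library, and their part in these values was not tested.

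G001751 and G001752 differed by library and not by group. G001752, 18366 bases long, had 6120, 8432 and 6650 counts in control and 12, 6732 and 21673 in EFV. G001751, 9075 bases long, had 835, 1162 and 990 counts in control and 0, 891 and 2845 in EFV. Both were lowest in EFV 1 and highest in EFV 3. The Y-linked genes, at 266 CPM in EFV 1, 95.1 CPM in EFV 3 and between 199 and 213 CPM in the other libraries, had the opposite order at both ends. For G001752 the control mean was 296 ± 61.5 CPM and the EFV mean 388 ± 452 CPM (SD, n = 3), an edgeR log2 fold change of 0.39 (SE 1.19) whose sign depended on the fit.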

How the data were processed

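RNA was measured in 6 libraries of poly-A RNA, 3 control and 3 EFV. The authors quantified expected counts per feature with RSEM 1.2.12 after alignment with Bowtie2 2.2.5 to mm10, and the counts are not normalized. The deposited FPKM values came from the same program and divide by length and library total. HISAT2 2.0.4 is named in the submitters' processing notes without a role. How the BGI_novel regions were assembled, the read filter, the strandedness of the counting and the database of the protein matches are not given in the sources used here, and no coordinates or sequences of the regions were used.

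Expected counts were rounded to whole numbers, and a feature not listed in a library was taken as 0. EFV was compared with control with edgeR 4.0.16 in R 4.3.3 (quasi-likelihood, two-sided) on all 15537 features with at least 10 counts in at least 3 libraries, with TMM scaling, group as the only term and BH adjustment over all of them. The limits of p 0.05 and fold 1.07 were applied to this test. DESeq2 1.42.0, limma 3.58.1 on log2(FPKM + 0.1) and log2(FPKM + 1), a Poisson model, other scalings and filters, the replicate number as a block, and leaving out each library were alternatives. Log2 CPM used a prior of 1 count. The scripts were tested on simulated data. Values of 1 number per library were compared with an exact permutation test over the 6 libraries. No statement gives how mice were divided among pools, so p-values measure the spread between these pools. At 23455167 to 24590278 counts per library, counting error weighs most on regions near 10 counts.

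Named regions were the 10 most abundant, the 2 with the lowest edgeR p per direction among those without overlap, the 6 most abundant at 0 in a library, the 4 steadiest and 4 most variable with a mean of at least 100 counts, the 3 longest and 3 shortest, 3 on each side of the limit, and those called by edgeR or DESeq2. Others are named as chosen after their values were seen. The regions, lists and rules were chosen with earlier results of these data known.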

Additional observations from a re-analysis of the deposited data

Results flagged for a closer look

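Among the 536 BGI_novel rows outside the count limit, which no comparison used, 34 were at 0 in all control libraries with counts in an EFV library, and 40 the reverse. Of the 34, 2 had 10 counts or more in 2 EFV libraries or 100 or more in 1. G000184 (2689 bases) had 139 counts in EFV 2 and 0 in the other EFV libraries. G000347 (2050 bases), with a match to hippocalcin-like protein 1, a neuronal calcium sensor, had 0, 10 and 17 counts in EFV. Neither was present in all EFV libraries, and no test was made of either. In all, 8 of these rows had 100 counts or more in a library, up to 620 counts.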

How the results depend on the processing

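The number of regions past an adjusted p of 0.05 was 0 by edgeR under each scaling and filter, by limma and with the replicate block, 10 by DESeq2, 336 by the Poisson model and 5 by DESeq2 after the counts of each match were summed. Without 1 library it was 0 to 1, the 1 being G001464 without EFV 1. The number past the limits of p 0.05 and fold change was 462 by the Poisson model, against 103. It was 53 by edgeR and 40 by DESeq2 after summing, and 125 with the replicate block. The study's methods based their threshold on the Poisson distribution, which leaves out the spread between pools. The share of all features called by the Poisson model is not given here, so 336 and 462 are no result about the regions. The sums were added after the data were seen and hold 746 features in place of 1160. Without 1 library 214 to 241 regions had groups that did not overlap, as fewer libraries overlap less often. Regions under 5 counts in a library numbered 114, against 56 at 0. The median spread was 0.283 with a prior of 5 counts, 0.282 on log2(FPKM + 0.1) and 0.280 to 0.295 without 1 library, against 0.303. The median length was 3103 bases at a limit of 20 counts and 1444 with none. The 2 shares kept their direction with other count limits, by FPKM, without the most abundant region and without any 1 library. The share of all counts turned to the other direction without the 3 top regions. The sizes of the differences rested on single libraries. EFV minus control was -0.21 percentage points for the share of all counts, -0.093 without control 2, -0.097 without EFV 1, -0.365 without control 3 and -0.328 without EFV 3, and it was 0.024 without the 3 top regions. For the top 10 it was -0.64, and -0.195 without EFV 1.

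Of the log2 fold changes of 20 regions under the alternatives, 351 of 360 kept their sign. That of G001752 was -1.79 and -0.84 by limma with 0.1 and 1 added to FPKM, -0.94 with the replicate block, and -1.09 to 0.98 without 1 library. Without 1 library those of G000864 ranged from -0.14 to 0.0030, of G001051 from -0.059 to 0.20, of G001358 from -0.0073 to 0.081 and of G001361 from -0.25 to 0.21. The cause was not tested. Libraries with the same number correlated in their deviations at 0.080 to 0.126, and each correlated best with its own number, which is a hint and not a design. The replicate block changed no call at the adjusted threshold. Effective lengths were not used here, so that alternative was not run.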
